A study of Mus musculus with 24 samples.

Results

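Iron uptake, storage, export and sensing are represented by 10 genes out of the 49315 counted in these libraries. They were chosen by name, with their levels in the treatment groups already known, so the values that chose them are the values given below. The 10 genes are *Tfrc*, *Steap3* and *Slc11a2* (uptake), *Fth1*, *Ftl1* and *Ncoa4* (storage and its release), *Slc40a1* (export), and *Ireb2*, *Aco1* and *Fbxl5* (sensing). All 10 were found once by symbol, and 9 of them passed the filter on low counts, while *Slc40a1* did not. The fold changes and calls of these 9 genes are therefore descriptions of size against the spread of the replicates, carry no p value here and support nothing by themselves.

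RNA was sequenced from MS03 cells, a single murine Schwann cell (SC) line labelled Nf2-/- in every group, the controls included. *Nf2* was still counted at 157.6 to 188.5 CPM (counts per 1000000 counts of a library after scaling of the library totals by TMM) in the group means and counts over a whole gene do not show whether its deleted part is missing, so they do not check the genotype. Cells were treated for 24 h with DMSO (the solvent), with the FAK kinase inhibitors defactinib, VS-4718, GSK2256098 or IN10018 at 1 µM each, or with the FAK PROTACs PROTAC FAK degrader 1 at 1 µM, GSK215 at 0.1 µM or BSJ-04-0146 at 0.1 µM. FAK, encoded by *Ptk2*, is a kinase of focal adhesions; a kinase inhibitor occupies its active site, and a PROTAC joins a FAK ligand to a ligand of an E3 ubiquitin ligase so that the protein is degraded. There were 3 biological replicates per group and 24 libraries in 8 groups, and since nothing in the labels says that replicates came from separate cultures, the errors given measure the spread between these samples.

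Cells take up most of their iron as transferrin bound to the transferrin receptor. In the endosome the ferric iron is reduced and passes through a metal transporter to the cytosol, where it is used for haem and iron-sulphur clusters or stored in ferritin. The iron-regulatory proteins IRP1 and IRP2 bind a hairpin, the iron-responsive element, when iron is scarce. Bound in the 3′ untranslated region of the transferrin receptor transcript they protect it from decay, and bound in the 5′ untranslated region of ferritin or ferroportin transcripts they block translation. SCs need iron for myelin lipid synthesis, and a dividing cell needs it for ribonucleotide reductase.

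The hairpins are shown because the iron-regulatory proteins act on transcripts through them. A search of the annotated untranslated regions for a C, 5 bases, the loop CAGTG with 1 more base, and 5 bases pairing with the first 5 (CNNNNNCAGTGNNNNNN, 17 bases, G-U pairs included, transcribed strand only) found 7 sites in 4 of the 10 genes. They are printed 5′ to 3′ as DNA from GENCODE M21 transcripts (GRCm38) with the 6 loop bases in capitals.
Tfrc 3′ untranslated region, chr16:32631219-32631247, plus strand: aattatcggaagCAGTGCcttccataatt
Tfrc 3′ untranslated region, chr16:32631598-32631626, plus strand: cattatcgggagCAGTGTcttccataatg
Tfrc 3′ untranslated region, chr16:32631663-32631691, plus strand: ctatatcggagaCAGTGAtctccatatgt
Tfrc 3′ untranslated region, chr16:32631710-32631738, plus strand: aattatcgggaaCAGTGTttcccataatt
Fth1 5′ untranslated region, chr19:9982732-9982760, plus strand: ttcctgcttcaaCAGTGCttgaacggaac
Ftl1 5′ untranslated region, chr7:45459779-45459807, minus strand: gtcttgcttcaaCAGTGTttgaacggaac
Slc40a1 5′ untranslated region, chr1:45925465-45925493, minus strand: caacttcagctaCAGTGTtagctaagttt

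The same letters were present in the 5′ untranslated region of 31 of 21200 genes (0.146%) and in the 3′ untranslated region of 144 of 21193 genes (0.679%). Both ferritin genes carried the hairpin in the 5′ region, and *Tfrc* carried 4 copies in the 3′ region. No match was present in the untranslated regions of *Slc11a2*, *Steap3*, *Ncoa4*, *Ireb2*, *Aco1* or *Fbxl5*, which says only that these letters are not there; *Slc11a2* is known for an iron-responsive element in the 3′ untranslated region of some of its transcripts, which this strict pattern did not find. A match describes the sequence and not its use in these cells, and the counts measure transcripts, so translation of ferritin was not measured.

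Library totals ranged from 14472462 to 27449516 counts and were lowest with GSK215 (14472462 to 19331704) and BSJ-04-0146 (16112245 to 17794597). *Ptk2* transcripts were present in every group at 77.9 to 97.7 CPM. The group means were 95.3 CPM with DMSO, 77.9 with GSK215, 79.7 with BSJ-04-0146, 84.3 with VS-4718 and 86.5 with defactinib. They were 87.2 CPM with GSK2256098, 90.7 with IN10018 and 97.7 with PROTAC FAK degrader 1. These libraries do not measure FAK protein. Of the 10 SC markers, *Sox10* stood at 20.1 CPM with DMSO and *Mbp* at 15.4 CPM, whereas *S100b* and *Gap43* had at most 18 counts in any library. The summed level of the 10 SC markers was 303 to 307 CPM with DMSO, 184 to 193 CPM with PROTAC FAK degrader 1, 526 to 542 CPM with GSK215 and 456 to 484 CPM with BSJ-04-0146. Most of the DMSO sum was *Cdh2*, at 195.5 CPM with DMSO and 72.2 to 227 CPM in the group means, whereas the group means of *Mbp* and *Erbb3* were lowest with DMSO. The 5 macrophage markers summed to 3.71 to 4.08 CPM with DMSO and to 11.2 to 12 CPM with PROTAC FAK degrader 1, nearly all of it *Cd68*, while *Ptprc* and *Adgre1* had at most 1 count. The 4 fibroblast markers summed to 395 to 414 CPM with DMSO and to 291 to 297 CPM with PROTAC FAK degrader 1; nearly all of this was *Col1a1*, and *Lum* had 0 counts. The hemoglobin genes *Hbb-bs* and *Hba-a1* had 0 counts. The part of these marker levels in the results below was not tested. Because RNA was taken from whole cultures, a change in every cell and a change in a share of the cells cannot be told apart.

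Per length of annotated exons, the ferritin genes and the transferrin receptor stood far above the other members in DMSO-treated cells. RPKM divides CPM by the length in kilobases of all annotated exons of a gene, with overlaps counted once. This length, 1340 bases for *Ftl1* and 3469 for *Fth1*, covers every annotated transcript and not the main one alone. The order of genes is therefore approximate. *Ftl1* had 679 ± 12.7 RPKM, *Fth1* 223 ± 1.70 RPKM and *Tfrc* 124 ± 0.366 RPKM (SD, n = 3). A middle range held *Aco1* at 20.7 ± 0.533 RPKM, *Slc11a2* at 19.6 ± 0.340 RPKM and *Ireb2* at 11.7 ± 0.0505 RPKM. *Steap3* stood at 9.12 ± 0.250 RPKM, *Fbxl5* at 5.47 ± 0.204 RPKM and *Ncoa4* at 4.41 ± 0.0788 RPKM. *Slc40a1* (GRCm38 chr1:45908068-45926523, minus strand), which encodes ferroportin, the iron exporter of mammalian cells, had 0 to 3 counts in each library and 13 counts over all 24. At or under a floor of 3 counts per library no fold is given for it, so the export arm of this gene set was barely detectable at this depth in any group.

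*Tfrc* (GRCm38 chr16:32608920-32632794, plus strand), the transferrin receptor gene, was the member that varied most. Its level was 766, 767 and 763 CPM in the 3 DMSO libraries. With PROTAC FAK degrader 1 it was 114, 120 and 123 CPM, 15.6% of the DMSO mean. All 3 libraries lay below every library of all other groups. With GSK215 *Tfrc* was 464, 451 and 441 CPM (59.1% of DMSO), and with BSJ-04-0146 it was 457, 426 and 408 CPM (56.2% of DMSO). With VS-4718 it was 566, 593 and 626 CPM (77.7% of DMSO). All libraries of these 3 drugs lay below DMSO, and those of the 2 PROTACs also lay below VS-4718. The fitted log2 fold changes compared to DMSO were -2.69 ± 0.0396 (SE) with PROTAC FAK degrader 1, -0.83 ± 0.0364 with BSJ-04-0146, -0.76 ± 0.0363 with GSK215 and -0.36 ± 0.0358 with VS-4718. With IN10018 *Tfrc* was 692, 692 and 665 CPM, a change of -0.16 ± 0.0358. With GSK2256098 it was 718, 736 and 720 CPM, 94.7% of DMSO, and did not pass the threshold although its libraries did not overlap with DMSO. With defactinib it was 788, 748 and 752 CPM, on both sides of the DMSO range. In descending order *Tfrc* ran from DMSO through defactinib, GSK2256098, IN10018, VS-4718, GSK215 and BSJ-04-0146 to PROTAC FAK degrader 1. Neighbours in this order were separated in all 3 libraries except DMSO and defactinib, and GSK215 and BSJ-04-0146, whose ranges overlapped.

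*Slc11a2* (chr15:100387898-100425072, minus strand) encodes DMT1, the transporter that moves ferrous iron out of the endosome. It had 122, 126 and 124 CPM with DMSO and 63.6, 62.2 and 61.1 CPM with PROTAC FAK degrader 1, 50.2% of the DMSO mean and the lowest of all groups. With BSJ-04-0146 it was 93.1, 90.3 and 89.0 CPM, and with GSK215 it was 107, 105 and 108 CPM. IN10018 gave 106, 105 and 112 CPM, a range that overlapped with GSK215. All 12 of these libraries were below DMSO. The log2 fold changes compared to DMSO were -0.995 ± 0.0362 (SE) with PROTAC FAK degrader 1, -0.45 ± 0.0352 with BSJ-04-0146, -0.22 ± 0.0345 with GSK215 and -0.21 ± 0.0339 with IN10018. The value with GSK215 was -0.10 when libraries were scaled by their totals alone, and was still called. GSK2256098 was the only drug with a higher call, at 129, 136 and 137 CPM and 0.11 ± 0.0332, and that call was lost without DMSO replicate 1 or 3 and without GSK2256098 replicate 2 or 3 (0.09 to 0.11), and also with no filter on low counts (0.11). The levels with defactinib (120 to 127 CPM) and VS-4718 (129 to 131 CPM) were not called.

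*Steap3* (chr1:120190757-120272705, minus strand), the endosomal ferrireductase that acts between the receptor and DMT1, did not follow the other uptake genes. Its DMSO libraries had 53.6, 50.8 and 51.9 CPM. PROTAC FAK degrader 1 gave 30.3, 30.6 and 30.7 CPM, below DMSO, whereas GSK215 gave 64.2, 70.9 and 66.4 CPM and BSJ-04-0146 gave 79.2, 85.1 and 80.2 CPM, above DMSO. The PROTACs thus lay on opposite sides of DMSO for this gene, with no overlap, at log2 fold changes of -0.77 ± 0.0475 (SE) for PROTAC FAK degrader 1, 0.37 ± 0.0431 for GSK215 and 0.65 ± 0.0423 for BSJ-04-0146. The doses of PROTAC FAK degrader 1 and of the other PROTACs differ, so these values stand side by side and no difference between them was tested. Smaller increases were seen with GSK2256098 (56.8, 59.7 and 58.8 CPM), defactinib (57.0, 56.8 and 60.5 CPM) and VS-4718 (56.6, 54.4 and 58.1 CPM), at 0.17 ± 0.0425, 0.16 ± 0.0425 and 0.12 ± 0.0423. Each of these calls rested on single libraries. It was lost for GSK2256098 without DMSO replicate 2 (0.15), for defactinib without defactinib replicate 3 (0.13), and for VS-4718 without DMSO replicate 2 or 3 or VS-4718 replicate 1 or 3 (0.08 to 0.10), with DESeq2 and with no filter on low counts (0.11 each). IN10018 gave 46.5 to 49.0 CPM, below the DMSO libraries and not called.

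**Figure D1:**
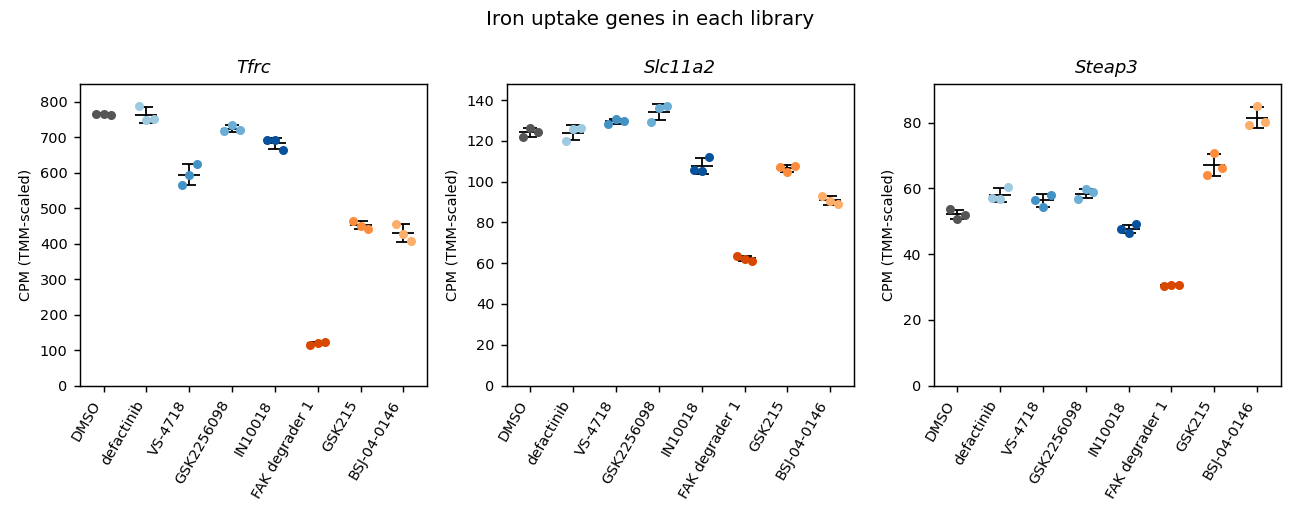
Level of the 3 iron uptake genes in CPM (y axis, TMM-scaled, from 0) in each of the 24 libraries by treatment group (x axis); points are libraries, and the bar and whiskers are the mean and SD of 3 libraries. *Tfrc* falls from 763 to 767 CPM with DMSO to 114 to 123 CPM with PROTAC FAK degrader 1, while *Steap3* is below DMSO with that drug and above DMSO with GSK215 and BSJ-04-0146.

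With the PROTACs the ferritin genes changed in the direction opposite to *Tfrc* and *Slc11a2*. *Fth1* (chr19:9980598-9985098, plus strand) encodes the heavy subunit, which oxidises iron on its way into the ferritin shell. It had 772, 779 and 768 CPM with DMSO, 1045, 1005 and 1017 CPM with PROTAC FAK degrader 1, 952, 976 and 993 CPM with GSK215 and 1438, 1442 and 1316 CPM with BSJ-04-0146. All 9 PROTAC libraries were above all DMSO and all kinase inhibitor libraries. BSJ-04-0146 was highest, at 181% of the DMSO mean. The log2 fold changes compared to DMSO were 0.86 ± 0.0346 (SE) with BSJ-04-0146, 0.40 ± 0.0344 with PROTAC FAK degrader 1 and 0.33 ± 0.0345 with GSK215. With VS-4718 *Fth1* was 854, 836 and 794 CPM, a log2 fold change of 0.10 ± 0.0344 whose call was lost on leaving out any DMSO library or VS-4718 replicate 1 or 2 (0.07 to 0.10). The group means with defactinib, GSK2256098 and IN10018 were 99.3% to 104% of DMSO, with ranges that overlapped DMSO.

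*Ftl1* (chr7:45457944-45459884, minus strand) encodes the light subunit, which supports the mineral core of ferritin. It had 929, 896 and 905 CPM with DMSO and 1870, 1836 and 1786 CPM with PROTAC FAK degrader 1, 201% of the DMSO mean and the highest of all groups. BSJ-04-0146 followed with 1606, 1635 and 1488 CPM. GSK215 gave 1134, 1170 and 1182 CPM, and VS-4718 gave 1155, 1119 and 1108 CPM, 2 groups that overlapped with each other and lay above DMSO. The log2 fold changes compared to DMSO were 1.01 ± 0.0334 (SE), 0.79 ± 0.0333, 0.35 ± 0.0333 and 0.31 ± 0.0332 in the same order. IN10018 gave 1015, 932 and 999 CPM and 0.11 ± 0.0332, a call that was lost without DMSO replicate 2 or 3 or IN10018 replicate 1 or 3 (0.08 to 0.10). Defactinib was the only drug with a lower call, at 815, 824 and 826 CPM and -0.15 ± 0.0333. GSK2256098 gave 898, 920 and 903 CPM, overlapping with DMSO.

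The balance of the subunit transcripts also differed between drugs. The *Fth1* to *Ftl1* ratio of CPM was 0.850 ± 0.019 (SD, n = 3) with DMSO. It was 0.558 ± 0.011 with PROTAC FAK degrader 1, where the transcript of the light subunit rose more, and 0.887 ± 0.0069 with BSJ-04-0146. It was 0.838 ± 0.0032 with GSK215, 0.734 ± 0.016 with VS-4718, 0.815 ± 0.011 with IN10018, 0.847 ± 0.028 with GSK2256098 and 0.952 ± 0.032 with defactinib. All libraries of PROTAC FAK degrader 1, VS-4718 and IN10018 lay below the DMSO range of 0.831 to 0.870, and all libraries of BSJ-04-0146 and defactinib lay above it. Those of GSK215 lay inside it, and those of GSK2256098 (0.815 to 0.870) overlapped with it. Ferritin has many processed gene copies; the 5 annotated copies examined held at most 0.32% of the counts of their parent gene in any library.

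*Ncoa4* (chr14:32159865-32179855, plus strand) encodes the receptor that carries ferritin to the lysosome for release of its iron. It had 40.8, 40.9 and 42.1 CPM with DMSO and 48.0, 46.4 and 50.6 CPM with PROTAC FAK degrader 1, the only group in which it was called (0.23 ± 0.0486, SE). In the other 6 drug groups its mean was 95.03% to 102% of DMSO.

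The summed ferritin level and *Tfrc* are set side by side for each library in the plot of *Tfrc* against ferritin. *Fth1* and *Ftl1* together had 1683 ± 15.8 CPM (SD, n = 3) with DMSO, 2853 ± 57.0 CPM with PROTAC FAK degrader 1, 2975 ± 149 CPM with BSJ-04-0146 and 2136 ± 45.6 CPM with GSK215. The *Tfrc* to *Fth1* ratio of CPM was 0.990 ± 0.0049 with DMSO. It was 0.116 ± 0.0064 with PROTAC FAK degrader 1, 0.308 ± 0.011 with BSJ-04-0146, 0.464 ± 0.022 with GSK215 and 0.720 ± 0.063 with VS-4718. With IN10018 it was 0.854 ± 0.041, with GSK2256098 0.944 ± 0.033 and with defactinib 0.976 ± 0.043. Only with defactinib did the range of this ratio (0.927 to 1.01) overlap with DMSO (0.984 to 0.994). The drug with the lowest *Tfrc* was thus not the drug with the highest *Fth1*.

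**Figure D2:**
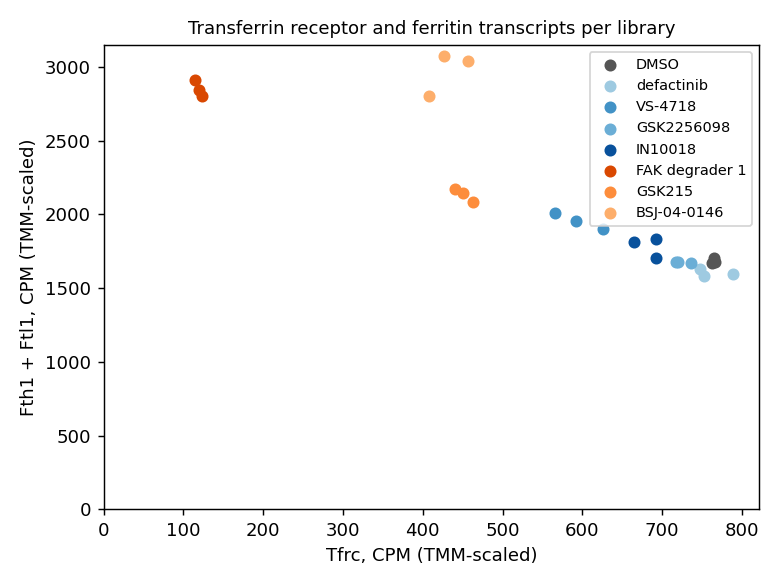
*Tfrc* level (x axis) against the summed level of *Fth1* and *Ftl1* (y axis), both in TMM-scaled CPM from 0, with 1 point for each of the 24 libraries, coloured by treatment. PROTAC FAK degrader 1 and BSJ-04-0146 have ferritin sums of 2803 to 3077 CPM at very different *Tfrc* levels, and defactinib and GSK2256098 sit near DMSO.

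**Figure D3:**
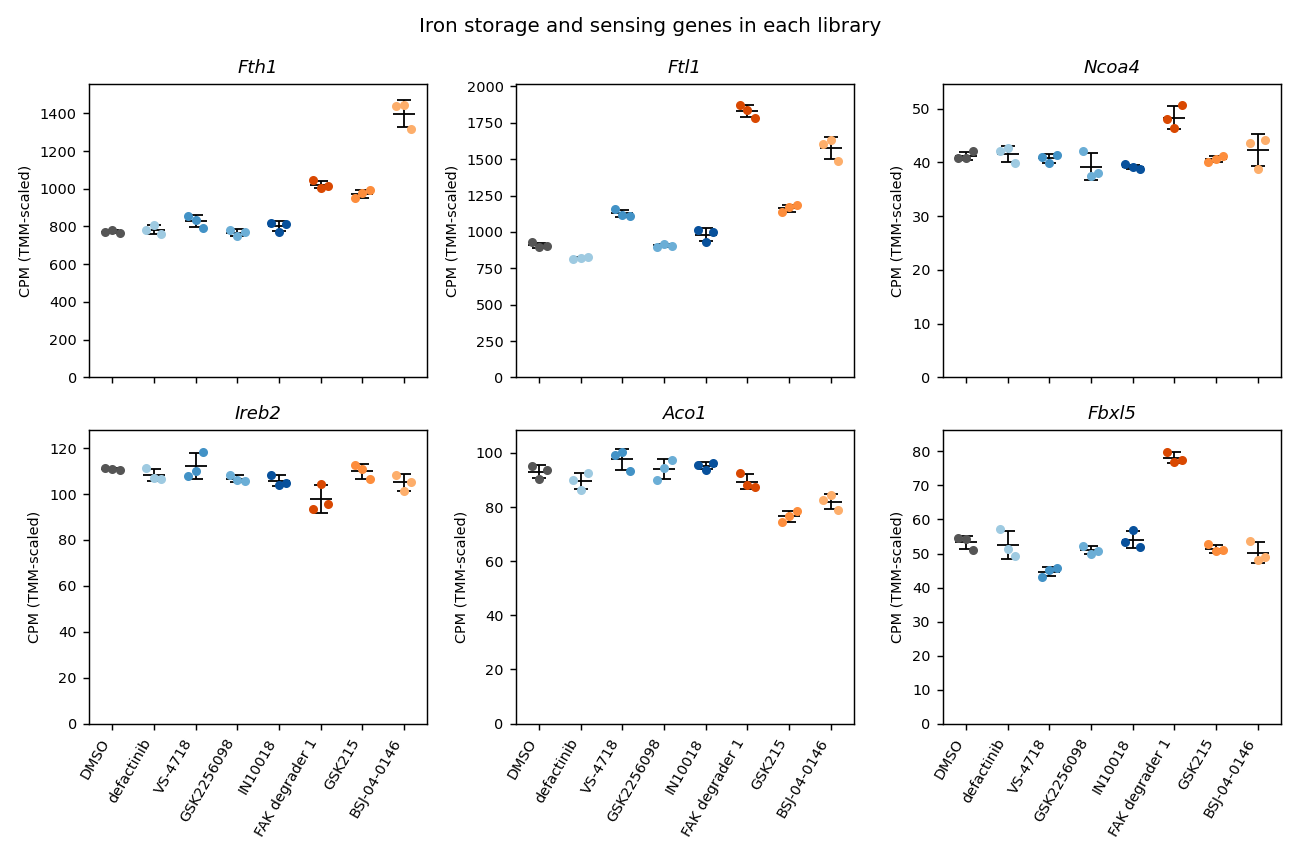
Level of the storage and sensing genes in TMM-scaled CPM (y axis, from 0) in each library by treatment group (x axis); points are libraries, and the bar and whiskers are the mean and SD of 3 libraries. *Fth1* is highest with BSJ-04-0146, *Ftl1* and *Fbxl5* are highest with PROTAC FAK degrader 1, and *Ireb2* stays between 93.4 and 119 CPM in all libraries.

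Among the sensors the group means of *Ireb2* and *Aco1* varied little, 1.15-fold and 1.28-fold from lowest to highest, and those of *Fbxl5* varied 1.75-fold. *Ireb2* (chr9:54863789-54912530, plus strand) encodes IRP2, which is controlled mainly through degradation of the protein. It had 111, 111 and 110 CPM with DMSO and 93.4, 105 and 95.6 CPM with PROTAC FAK degrader 1, the only drug with a call against DMSO (-0.18 ± 0.0395, SE; -0.097 with library totals alone, still called). The 8 group means formed a chain from 112 CPM (VS-4718) to 97.8 CPM (PROTAC FAK degrader 1) in which every group overlapped with its neighbour.

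*Aco1* (chr4:40143081-40198338, plus strand) encodes IRP1, a cytosolic aconitase that binds RNA when it lacks its iron-sulphur cluster. It had 94.98, 90.4 and 93.7 CPM with DMSO, 74.5, 76.6 and 78.5 CPM with GSK215 and 82.5, 84.4 and 78.9 CPM with BSJ-04-0146. Both drugs lay below DMSO in all libraries, at log2 fold changes of -0.28 ± 0.0399 (SE) and -0.18 ± 0.0397. With libraries scaled by their totals alone the value for GSK215 was -0.16 and the call for BSJ-04-0146 was lost (-0.07). With PROTAC FAK degrader 1 *Aco1* was 87.4 to 92.4 CPM, which overlapped with DMSO.

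*Fbxl5* (chr5:43744615-43821638, minus strand) encodes the iron-binding F-box protein that directs IRP2 to the proteasome when iron is plentiful. It had 54.5, 54.3 and 51.0 CPM with DMSO and 80.0, 76.9 and 77.6 CPM with PROTAC FAK degrader 1, 147% of the DMSO mean and 0.55 ± 0.0467 (SE) on the log2 scale. VS-4718 gave the lowest level, at 43.2, 45.2 and 45.6 CPM and -0.25 ± 0.0485. In the other 5 drug groups its mean was 94.3% to 101% of DMSO. The strand setting of the counting is not given in the sources used here, and exons of *Fbxl5*, *Slc11a2* and *Ftl1* overlap exons of *Bst1*, *Gm5475* and *Gm10252* on the other strand, while *Gm22133* overlaps *Ftl1* on the same strand.

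Counted over the 9 genes tested (edgeR quasi-likelihood test, Benjamini-Hochberg adjustment over 16070 genes, threshold 0.05), PROTAC FAK degrader 1 had 4 higher and 4 lower, where 34.1% of all genes tested were higher and 32.7% lower. GSK215 had 3 higher and 3 lower, against 27.4% and 27.2% of all genes, and 4 higher and 3 lower with library totals alone. BSJ-04-0146 had 3 higher and 3 lower, against 27.7% and 26.9% of all genes, and 4 higher and 2 lower when libraries were scaled by their totals alone. VS-4718 had 3 higher and 2 lower, against 20.4% and 18.9% of all genes, with 2 higher and 2 lower by DESeq2 and 5 higher and 2 lower with library totals alone. Defactinib had 1 higher and 1 lower, against 11.4% and 11% of all genes. GSK2256098 had 2 higher and 0 lower, against 6.36% and 6.09% of all genes. IN10018 had 1 higher and 2 lower, against 6.44% and 6.85% of all genes. The median log2 fold change of the 9 genes lay between -0.08 and 0.06 in every comparison with DMSO, beside medians of 0.00 to 0.02 over all genes. Nothing is read from these counts about the genes as a set, since the genes were chosen with these comparisons known. All 7 comparisons share the 3 DMSO libraries.

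**Figure D4:**
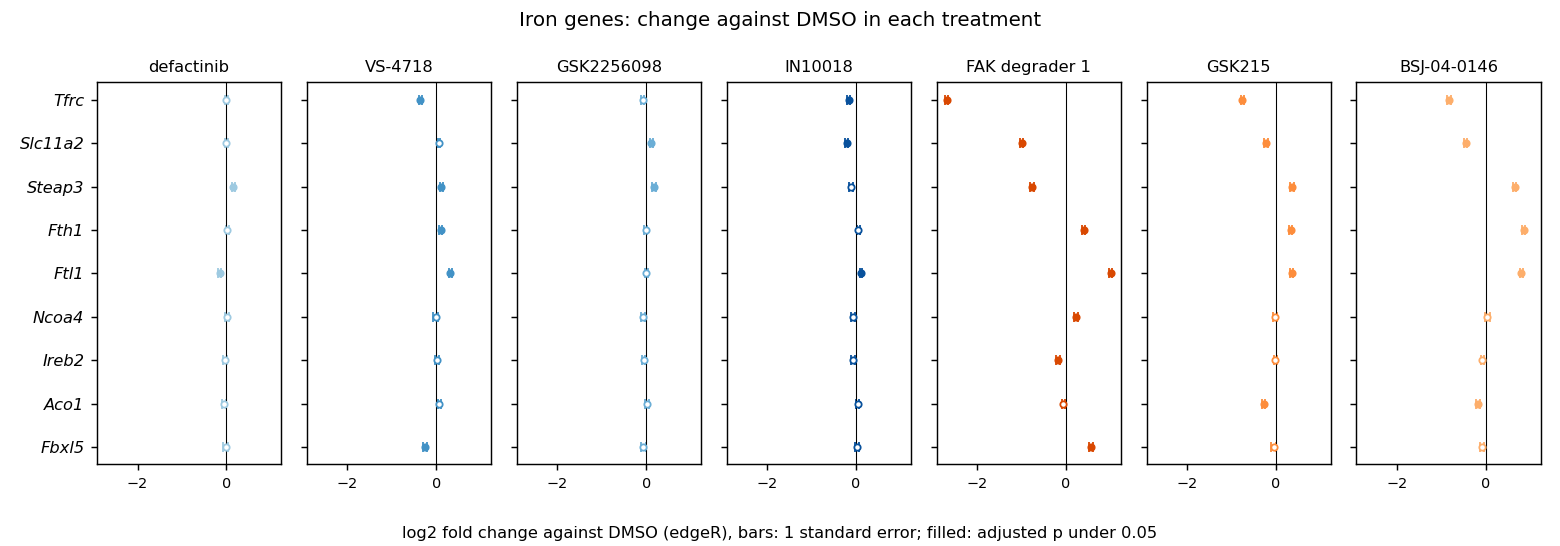
Log2 fold change compared to DMSO (x axis, edgeR) of the 9 tested iron genes (y axis), with a panel for each drug; bars are 1 SE and are often hidden by the points, and filled points have an adjusted p under 0.05. *Tfrc* lies at -2.69 with PROTAC FAK degrader 1, and the ferritin genes lie to the right of 0 with the 3 PROTACs.

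Compounds were compared directly in 3 pairs at matched dose and time. VS-4718 and defactinib, both kinase inhibitors at 1 µM, differed in 4 of the 9 genes, where 34% of all genes differed in either direction. Compared to defactinib, VS-4718 had lower *Tfrc* (-0.36 ± 0.0358, SE) and *Fbxl5* (-0.24 ± 0.0488) and higher *Ftl1* (0.46 ± 0.0333) and *Aco1* (0.12 ± 0.0379). The call of *Aco1* was lost without defactinib replicate 2 or VS-4718 replicate 1 or 2 (0.09 to 0.10). PROTAC FAK degrader 1 and defactinib, both at 1 µM, differed in 8 of the 9 genes, where 68.9% of all genes differed. *Tfrc* (-2.68 ± 0.0396), *Slc11a2* (-0.99 ± 0.0363) and *Steap3* (-0.93 ± 0.0471) were lower with the degrader, and *Ftl1* (1.16 ± 0.0335), *Fbxl5* (0.57 ± 0.0470) and *Fth1* (0.39 ± 0.0345) were higher. *Ncoa4* was higher (0.22 ± 0.0487) and *Ireb2* lower (-0.15 ± 0.0397), the latter not called with library totals alone (-0.08).

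GSK215 and BSJ-04-0146, both PROTACs at 0.1 µM, differed in 4 of the 9 genes, where 22.5% of all genes differed. *Fth1* (-0.52 ± 0.0345, SE), *Ftl1* (-0.44 ± 0.0332) and *Steap3* (-0.28 ± 0.0425) were lower with GSK215 and *Slc11a2* was higher (0.23 ± 0.0365). *Tfrc* was not called between them, at 0.07 ± 0.0368 with a 95% interval of -0.01 to 0.15, which does not show that the compounds act alike on it. Without BSJ-04-0146 replicate 1 this difference was 0.12 and passed the threshold, and without replicate 3 it was 0.04.

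Across the 24 libraries, the member pairs that ran together most were *Tfrc* and *Slc11a2* (Pearson r = 0.939 of log2(CPM + 4)) and *Fth1* and *Ftl1* (r = 0.819). *Tfrc* and *Ftl1* (r = -0.887) and *Slc11a2* and *Ftl1* (r = -0.879) ran against each other. The 3 genes whose pattern was most like that of *Tfrc* among 10278 genes with a mean of at least 5 CPM were *Tfdp1* (r = 0.9946), *Rrm2* (r = 0.9945) and *Hells* (r = 0.9937). *Tfdp1* encodes a partner of E2F factors, *Rrm2* the small subunit of ribonucleotide reductase and *Hells* a chromatin remodeller. Over the 21 libraries without PROTAC FAK degrader 1, the 3 genes stood at r = 0.976, 0.965 and 0.963 in the same order. The member pairs then stood at 0.752 for *Tfrc* and *Slc11a2*, 0.932 for *Fth1* and *Ftl1*, -0.907 for *Tfrc* and *Ftl1* and -0.765 for *Slc11a2* and *Ftl1*. Several other pairs changed sign between these sets of libraries, among them *Tfrc* and *Steap3* (0.583 over all 24 and -0.80 over the 21), *Tfrc* and *Fbxl5* (-0.80 and 0.312), *Steap3* and *Slc11a2* (0.514 and -0.603), *Steap3* and *Ftl1* (-0.242 and 0.773) and *Ftl1* and *Fbxl5* (0.533 and -0.345). These values describe libraries that share their treatment groups, and no test was made of them.

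A list of 81 further genes of iron handling, none of them among the 10, was drawn up by role, and 70 of them could be tested. This list, too, was chosen with earlier results of these data known. The adjusted p values given below for its genes therefore describe size against the spread of the replicates and are no independent support. Of these 70, 28 rose and 25 fell with PROTAC FAK degrader 1 (32 and 21 with library totals alone), against 34.1% and 32.7% of all genes, with a median log2 fold change of -0.01 beside 0.00 over all genes. With BSJ-04-0146 30 rose and 20 fell, against 27.7% and 26.9% of all genes (median 0.07 beside 0.02), and 35 rose and 13 fell with library totals alone. With GSK215 21 rose and 29 fell, against 27.4% and 27.2% of all genes (median -0.01 beside 0.02), whereas 28 rose and 16 fell with library totals alone, so the leading direction depended on the scaling. VS-4718 gave 21 higher and 13 lower (25 and 11 with library totals alone), against 20.4% and 18.9% of all genes. Defactinib gave 8 higher and 14 lower (8 and 8 with library totals alone), against 11.4% and 11% of all genes. GSK2256098 gave 6 and 6 (4 and 7 with DESeq2, 10 and 5 with library totals alone), against 6.36% and 6.09%. IN10018 gave 7 and 4 (9 and 3 with library totals alone), against 6.44% and 6.85%. Scaling by library totals moved the median of all genes by over 0.1 in 2 comparisons, to 0.14 with GSK215 and to 0.13 with BSJ-04-0146.

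By role, the counts with the PROTACs were mixed, and they are read beside the shares of all genes just given. Of 7 uptake and reductase genes tested, 3 rose and 2 fell with PROTAC FAK degrader 1, and 4 rose and 3 fell with each of GSK215 and BSJ-04-0146 (4 and 2 with GSK215 under library totals alone). Of 9 haem synthesis genes, 5 rose and 1 fell with PROTAC FAK degrader 1 (6 and 0 with library totals alone). With each of the other PROTACs 4 rose and 4 fell (4 and 2 with BSJ-04-0146 under library totals alone). Of 21 genes of mitochondrial import and cluster assembly, 10 rose and 8 fell with PROTAC FAK degrader 1 (11 and 7 with library totals alone). With BSJ-04-0146 9 rose and 5 fell (11 and 3 with library totals alone). With GSK215 5 rose and 7 fell, and the direction of this count turned with library totals alone (8 and 3). Of 8 regulators, 3 rose and 2 fell with PROTAC FAK degrader 1 (3 and 1 with library totals alone). With GSK215 4 rose and 1 fell (5 and 0 with library totals alone), and with BSJ-04-0146 6 rose and 0 fell. Of 6 genes of haem degradation and transport, 3 rose and 2 fell with PROTAC FAK degrader 1. With GSK215 1 rose and 1 fell (3 and 0 with library totals alone), and with BSJ-04-0146 2 rose and 0 fell (4 and 0 with library totals alone). Of 3 export and ferroxidase genes, 0 rose and 2 fell with PROTAC FAK degrader 1 (1 and 2 with library totals alone). With GSK215 1 rose and 1 fell (1 and 0 with library totals alone), and with BSJ-04-0146 2 rose and 1 fell.

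*Cp*, *Lcn2* and *Trf*, which encode secreted proteins, were highest with the 2 PROTACs at 0.1 µM. *Cp*, encoding the ferroxidase ceruloplasmin, rose from 63.9 ± 1.67 CPM (SD, n = 3) with DMSO to 311 ± 8.70 CPM with GSK215 (log2 fold change 2.28 ± 0.0395, SE, edgeR adjusted p = 1.01e-34) and to 223 ± 5.33 CPM with BSJ-04-0146 (1.80 ± 0.0400, adjusted p = 5.42e-31). It also rose with VS-4718 (1.02), defactinib (0.81) and GSK2256098 (0.72), and stood at 67.3 ± 2.68 CPM with PROTAC FAK degrader 1 and 63.0 ± 3.13 CPM with IN10018, where it was not called. *Lcn2*, encoding the siderophore-binding protein lipocalin 2, rose from 3.75 ± 0.124 CPM to 28.1 ± 0.900 CPM with GSK215 and to 24.5 ± 2.57 CPM with BSJ-04-0146. It rose less with defactinib (1.05), GSK2256098 (0.86) and VS-4718 (0.52). *Trf*, encoding transferrin itself, was low throughout, at 1.76 ± 0.283 CPM with DMSO. It rose to 5.56 ± 0.339 CPM with GSK215 (edgeR adjusted p = 1.54e-11) and to 5.18 ± 0.259 CPM with BSJ-04-0146 (adjusted p = 1.14e-10), rose less with VS-4718 (0.98) and defactinib (0.78), and fell to 1.01 ± 0.295 CPM with PROTAC FAK degrader 1 (adjusted p = 0.00174). *Steap1*, a relative of *Steap3*, fell with GSK215 (-0.63) and BSJ-04-0146 (-0.79) and rose with PROTAC FAK degrader 1 (0.37), in each case opposite to *Steap3*, and it also fell with IN10018 (-0.21).

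Of the 6 tested genes of haem degradation and transport, the largest increase with PROTAC FAK degrader 1 was that of *Hmox1*. This gene encodes haem oxygenase 1, which frees iron from haem. It rose from 28.4 ± 0.503 CPM (SD, n = 3) with DMSO to 101 ± 5.13 CPM with PROTAC FAK degrader 1 (log2 fold change 1.84 ± 0.0497, SE, edgeR adjusted p = 6.68e-29). It rose less with BSJ-04-0146, to 41.4 ± 1.09 CPM (0.55 ± 0.0557, adjusted p = 6.41e-11), and with IN10018 (0.23), and fell with GSK2256098 (-0.39) and VS-4718 (-0.25). *Bach1*, encoding a haem-binding repressor of *Hmox1*, rose with PROTAC FAK degrader 1 (0.46, adjusted p = 5.36e-07) and BSJ-04-0146 (0.30, adjusted p = 0.000619). *Nfe2l2*, encoding the activator NRF2, which acts on *Hmox1* and ferritin genes, rose with VS-4718 (0.38), BSJ-04-0146 (0.38), PROTAC FAK degrader 1 (0.24) and GSK215 (0.14). *Flvcr1*, a haem and choline transporter, fell with PROTAC FAK degrader 1 (-0.96, adjusted p = 2.93e-18), BSJ-04-0146 (-0.44), IN10018 (-0.31) and GSK215 (-0.24, not called with library totals alone), and rose slightly with defactinib (0.14). *Slc48a1*, which moves haem out of the endolysosome, rose from 163 ± 0.876 CPM with DMSO to 282 ± 2.33 CPM with BSJ-04-0146, 262 ± 3.68 CPM with GSK215, 245 ± 14.1 CPM with VS-4718 and 237 ± 7.69 CPM with PROTAC FAK degrader 1. It rose less with defactinib (0.17) and GSK2256098 (0.13) and was not called with IN10018.

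In haem synthesis, *Ppox* (protoporphyrinogen oxidase) rose from 29.7 ± 0.655 to 68.2 ± 1.56 CPM with PROTAC FAK degrader 1 (edgeR adjusted p = 3.13e-23). It also rose with GSK215, to 51.1 ± 2.54 CPM, with BSJ-04-0146, to 48.7 ± 1.31 CPM, and slightly with VS-4718 (0.18). *Cpox* (coproporphyrinogen oxidase), which acts 1 step earlier, fell from 74.6 ± 2.29 CPM with DMSO to 37.4 ± 0.828 CPM with GSK215 and 36.7 ± 1.16 CPM with BSJ-04-0146, and rose to 126 ± 4.29 CPM with PROTAC FAK degrader 1. It also fell with VS-4718 (-0.44), GSK2256098 (-0.26) and defactinib (-0.17). *Hspa9*, the mitochondrial chaperone of iron-sulphur cluster assembly, followed the same pattern. It fell from 1103 ± 4.602 CPM to 657 ± 1.15 CPM with GSK215 and 686 ± 9.88 CPM with BSJ-04-0146, and rose to 1854 ± 38.9 CPM with PROTAC FAK degrader 1. It likewise fell with VS-4718 (-0.45), GSK2256098 (-0.23) and defactinib (-0.15). Its cochaperone *Hscb* rose from 9.09 ± 0.552 to 22.7 ± 0.780 CPM with PROTAC FAK degrader 1 (edgeR adjusted p = 1.17e-17) and rose with BSJ-04-0146 (0.56). The calls of *Hscb* with defactinib (-0.26) and IN10018 (0.26) were lost with DESeq2 and with the replicate block. That with defactinib was also lost with library totals alone (-0.24). *Nubp2* (-1.12, edgeR adjusted p = 2.07e-20) and *Cisd2* (-1.08, adjusted p = 1.04e-21), listed with the cytosolic cluster and iron chaperone genes, fell with PROTAC FAK degrader 1. *Cisd2* also fell with IN10018 (-0.13) and BSJ-04-0146, and *Nubp2* fell with GSK215, calls that were lost with library totals alone. With GSK215 *Cisd2* was lower too, and changed sign with library totals alone. Of the 16 cytosolic cluster and iron chaperone genes, 12 fell and 2 rose with GSK215 (7 and 3 with library totals alone), where 27.2% of all genes fell and 27.4% rose. With BSJ-04-0146 7 fell and 3 rose (4 and 4 with library totals alone), where 26.9% and 27.7% of all genes did, and with PROTAC FAK degrader 1 8 fell and 4 rose (7 and 5 with library totals alone), where 32.7% and 34.1% did.

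The genes named for the kinase inhibitors also included members of these pathways. *Lrp1*, encoding an endocytic receptor that takes up haem bound to hemopexin, had 1055 ± 19.5 CPM (SD, n = 3) with DMSO and rose to 1285 ± 135 CPM with defactinib (edgeR adjusted p = 2.88e-05), to 1474 ± 47.7 CPM with VS-4718 and to 1493 ± 28.7 CPM with GSK215, and fell to 838 ± 18.7 CPM with PROTAC FAK degrader 1. It rose less with BSJ-04-0146 (0.18) and GSK2256098 (0.15, not called with DESeq2). *Alas1*, the first enzyme of haem synthesis, fell from 24.1 ± 1.05 CPM to 19.3 ± 1.26 CPM with GSK2256098 (adjusted p = 0.000269) and to 17.8 ± 1.06 CPM with GSK215, and rose to 34.8 ± 0.378 CPM with PROTAC FAK degrader 1. It fell less with defactinib (-0.26), VS-4718 (-0.23) and BSJ-04-0146 (-0.16, not called with library totals alone). *Iscu*, the scaffold of mitochondrial cluster assembly, rose from 30.1 ± 0.767 CPM to 43.8 ± 5.29 CPM with VS-4718 (adjusted p = 2.19e-08) and to 37.9 ± 1.63 CPM with BSJ-04-0146, and fell to 23.9 ± 2.28 CPM with PROTAC FAK degrader 1. *Lyrm4*, a partner of the cysteine desulphurase that supplies sulphur to clusters, and *Fdx1*, a mitochondrial ferredoxin, fell with defactinib (-0.30 and -0.28) and GSK215 (-0.43 and -0.35) and rose with PROTAC FAK degrader 1 (0.46 and 0.29); *Fdx1* also fell with BSJ-04-0146 (-0.21, not called with library totals alone). *Blvrb*, encoding biliverdin reductase B, fell with VS-4718 (-0.31) and rose with PROTAC FAK degrader 1 (0.95). *Bola3*, which helps to pass clusters to mitochondrial proteins, rose with VS-4718 (0.23), BSJ-04-0146 (0.21) and GSK2256098 (0.19). *Ciao2b*, of the complex that targets clusters to cytosolic and nuclear proteins, rose with VS-4718 (0.37), PROTAC FAK degrader 1 (0.31), BSJ-04-0146 (0.22) and IN10018 (0.22). *Slc39a14*, encoding the metal importer ZIP14, fell from 145 ± 2.10 CPM to 95.8 ± 3.11 CPM with BSJ-04-0146 and to 112 ± 1.16 CPM with GSK215, and by less with IN10018 (-0.15) and VS-4718 (-0.14).

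Among partners of the sensors was *Skp1*, the adaptor that holds FBXL5 in its ubiquitin ligase. With PROTAC FAK degrader 1, the drug with which *Fbxl5* was highest, it fell from 233 ± 2.87 to 149 ± 3.14 CPM (SD, n = 3, edgeR adjusted p = 2.41e-17). It was also called lower with defactinib (-0.11, not called with library totals alone). *Skp1* was lower with GSK215 too, and changed sign there with library totals alone. *Fbxl5* was not called with defactinib or GSK215. *Herc2*, encoding a ligase of NCOA4, rose with VS-4718 (0.21), GSK215 (0.19) and BSJ-04-0146 (0.12) and fell with PROTAC FAK degrader 1 (-0.11, not called with library totals alone). *Epas1*, encoding HIF-2α, whose transcript is a known target of IRP1, rose from 5.59 ± 0.434 CPM to 15.8 ± 0.681 CPM with BSJ-04-0146 (adjusted p = 6.64e-16) and to 10.1 ± 0.244 CPM with GSK215 (adjusted p = 9.79e-09). With PROTAC FAK degrader 1 it stood at 5.41 ± 1.06 CPM and was not called.

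**Figure D5:**
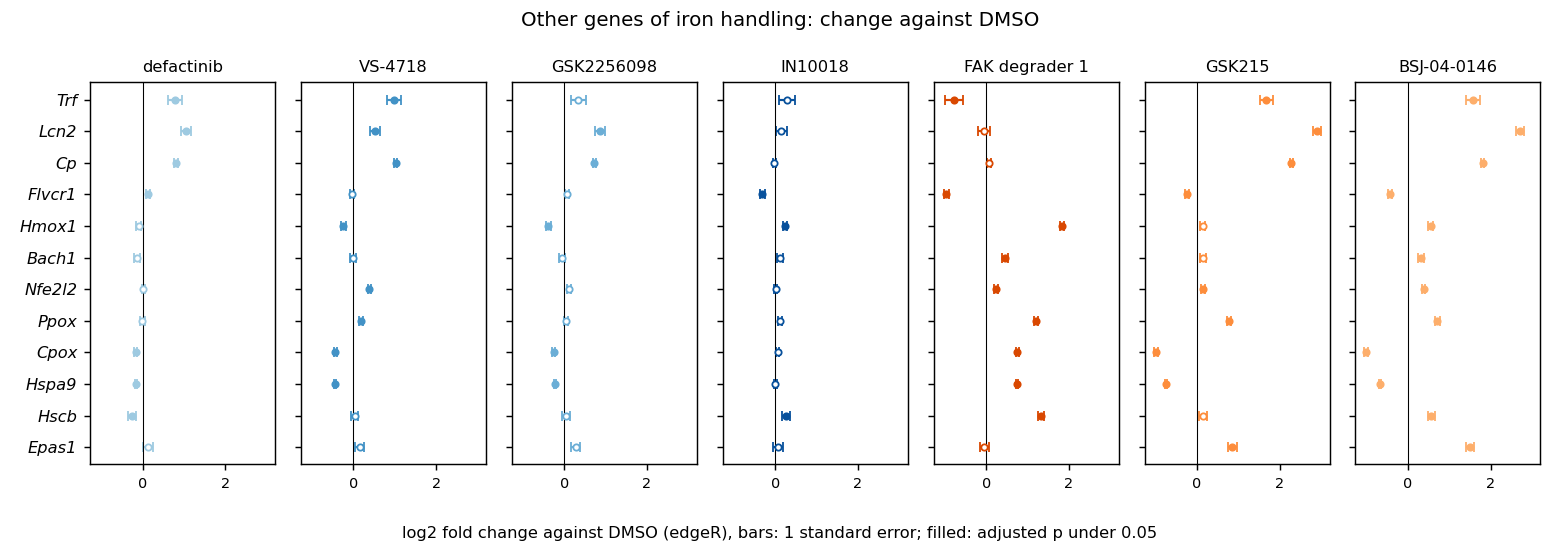
Log2 fold change compared to DMSO (x axis, edgeR) of 12 further genes of iron handling (y axis), with a panel for each drug; bars are 1 SE and filled points have an adjusted p under 0.05. *Hmox1* is farthest to the right with PROTAC FAK degrader 1 (1.84), while *Lcn2* and *Cp* are farthest to the right with GSK215 and BSJ-04-0146.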

How the data were processed

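Poly(A)-selected RNA of MS03 cells was sequenced in 24 libraries, 3 in each of 8 groups. The authors deposited a table of unnormalized read counts for 49315 Ensembl genes. The submitters' processing notes name Trimmomatic 0.36, STAR 2.5.2b, Subread 1.5.2 with featureCounts, and GRCm38; the annotation release and strand setting are not given in the sources used here. The study's scale, log2(CPM + 4), was recomputed from the counts.

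The quasi-likelihood test of edgeR 4.0.16 (R 4.3.3) was fitted to all 24 libraries after TMM scaling and filterByExpr, leaving 16 residual degrees of freedom. Two-sided P values received the Benjamini-Hochberg adjustment across all 16070 tested genes (threshold 0.05). RPKM used the length of all merged GENCODE M21 exons of each gene (GRCm38). The procedure was tested on simulated data.

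The 10 members and the list of 81 further genes, including 6 matched by older symbols, were chosen with earlier results of these data known. Of the further genes, the text names per drug up to 3 with the largest increases and 3 with the largest decreases (adjusted p under 0.05, mean of at least 5 CPM, no overlap with DMSO), with their values in other drugs where helpful, and *Hmox1*, *Epas1*, *Trf*, *Skp1*, *Herc2*, *Nfe2l2* and *Bach1*. A further gene of the list and a marker gene are not reported here. The 11 genes not tested had at most 14 counts in any library. Replicates differed by more than counting noise (chi-square per degree of freedom 1.74 to 8.85 over 24 pairs). Alternatives were DESeq2 1.42.0, limma 3.58.1, library totals alone, no filter, only the 6 libraries compared, a replicate block, a 1.5-fold minimum and leaving out each library.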

Additional observations from a re-analysis of the deposited data

How the results depend on the processing

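Of 49 fold changes of the iron genes given above, 39 kept their direction and their side of the threshold under 12 alternatives each (DESeq2, limma, the other scaling, filter, fit and block, and the 6 left-out libraries), and none changed sign. The calls that were lost are named beside their values. The 42 differences that were not called were at most 0.12 in size on the log2 scale; 20 of them changed sign under some alternative and 11 were called under some alternative. A minimum change of 1.5-fold was applied to the counts alone and left 4 of 8 with PROTAC FAK degrader 1, 4 of 6 with BSJ-04-0146, 1 of 6 with GSK215, and 0 with defactinib, VS-4718, GSK2256098 and IN10018. With no filter on low counts, GSK2256098 had 1 in place of 2. Leaving out single libraries gave 1 to 2 with defactinib, 3 to 4 with VS-4718, 1 to 2 with GSK2256098, 2 to 3 with IN10018, 8 in every case with PROTAC FAK degrader 1, 6 in every case with GSK215, 6 to 7 with BSJ-04-0146, 3 to 5 for VS-4718 against defactinib, 8 in every case for PROTAC FAK degrader 1 against defactinib and 4 to 5 for GSK215 against BSJ-04-0146. Of the other genes, *Skp1* and *Cisd2* with GSK215 changed sign with library totals alone (0.006 and 0.003), and the cause was not tested.

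Replicate numbers did not pair the samples: deviations of same-numbered libraries had a median correlation of -0.01, and 10.7% of 84 pairs were over 0.1. The replicate block moved no count of calls among the 9 iron genes tested (8 with PROTAC FAK degrader 1, 6 with GSK215 and 6 with BSJ-04-0146) and moved counts over the 70 further genes by at most 2 (from 22 to 20 with defactinib). Single libraries were not tested as outliers within groups of 3. Depth limits *Slc40a1*, which stayed at or under 3 counts per library.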
